A study of Rattus norvegicus with 31 samples.

Results

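The genes described here are 42 genes of the DNA replication machinery, chosen by symbol in the gene column of the count table, and they stand in 43 of its 26312 rows because Dbf4 is listed under 2 Ensembl identifiers. All 43 rows passed the filter on low values, a sum of at least 2 counts over all livers, which 19904 rows passed in total. The genes were measured by total RNA-Seq in the livers of 31 female Wistar rats that had been dosed daily by oral gavage for 28 days, each rat being a separate biological replicate. The 8 Control rats received only the vehicle, aqueous carboxymethyl-cellulose, which all other groups received as well. Thiacloprid (THI), a neonicotinoid insecticide, was given at 108 mg/kg bw/day to 4 rats, and clothianidin (CTD), another neonicotinoid, at 288 mg/kg bw/day to 3 rats. Imazalil (IMZ), an azole fungicide, was given at 93 mg/kg bw/day to 4 rats. The 3 mixtures, with 4 rats each, were THI + IMZ (54 and 46 mg/kg bw/day), THI + CTD (54 and 134 mg/kg bw/day) and IMZ + CTD (46 and 135 mg/kg bw/day). Because all doses were in the high dose groups and differed between compounds, compound and dose cannot be told apart. At this dose of CTD the study lost at least one rat, killed in moribund condition, so the 3 livers are those of the remaining animals. The deposited table holds read counts per gene, and the values below are CPM (counts scaled to a library of 1e+06 counts, after TMM normalization), or log2 fold changes with their standard error (SE) from edgeR's quasi-likelihood test across all genes, in which a gene is called at an adjusted p under 0.05.

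DNA replication starts from origins that the origin recognition complex, Cdc6 and Cdt1 license by loading the MCM helicase in G1 phase. In S phase the kinase Cdc7 with Dbf4, and then Cdc45 and the GINS proteins, turn the helicase on, after which the primase, the replicative polymerases, the sliding clamp PCNA and its loader RFC copy the strands, while ribonucleotide reductase and related enzymes supply the deoxynucleotides. Most of these genes are transcribed under E2F factors when cells enter the cell cycle, and in the adult liver, where hepatocytes are mostly quiescent, their mRNAs are low and rise when hepatocytes divide.

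The promoters of the genes are shown because 28 of the 43 rows were called higher in CTD. RefSeq promoters of GRCr8, from 250 bases before to 50 bases after each start, were found for 38 of the 42 symbols, as 39 promoters since Dut has 2. Orc1, Cdc6, Mcm4 and Rrm2 had no entry. The E2F motif was searched on both strands as TTTCCCGC, TTTCGCGC, TTTGCCGC or TTTGGCGC, and matches on opposite strands that overlap were each counted. It was held by 16 of the 39 promoters (41%) and by 2.14% of all 33469 promoters of the same length. The motif was held by 11 of the 25 promoters of genes called in CTD (44%) and by 5 of the 14 promoters of genes not called (35.7%). CCAAT, searched on both strands as well, was held by 59% of the promoters of the replication genes and 37.5% of all promoters. A match describes these letters only and is no evidence of binding, and a part of the motifs in the CTD values was not tested. Of the helicase subunits Mcm2 to Mcm7, 5 promoters were found and 5 held the motif (Mcm2, Mcm3, Mcm5, Mcm6 and Mcm7), while the promoter of Mcm10, which is no subunit of the ring, held no match. Printed here, 5′ to 3′ on the gene's strand with the E2F matches in capitals, are 2 MCM promoters with a pair of matches each, and the promoter of Chaf1a, which had the smallest p in CTD and held no match. Mcm6 lies at chr13:42404303-42404602 (minus strand), Mcm3 at chr9:30733697-30733996 (minus strand) and Chaf1a at chr9:960975-961274 (plus strand).
Mcm6: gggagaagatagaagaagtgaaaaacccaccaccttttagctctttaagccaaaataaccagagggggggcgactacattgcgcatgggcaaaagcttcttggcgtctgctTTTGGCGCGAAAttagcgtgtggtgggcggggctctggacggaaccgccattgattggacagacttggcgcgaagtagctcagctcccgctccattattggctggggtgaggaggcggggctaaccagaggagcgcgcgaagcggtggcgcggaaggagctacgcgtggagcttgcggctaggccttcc
Mcm3: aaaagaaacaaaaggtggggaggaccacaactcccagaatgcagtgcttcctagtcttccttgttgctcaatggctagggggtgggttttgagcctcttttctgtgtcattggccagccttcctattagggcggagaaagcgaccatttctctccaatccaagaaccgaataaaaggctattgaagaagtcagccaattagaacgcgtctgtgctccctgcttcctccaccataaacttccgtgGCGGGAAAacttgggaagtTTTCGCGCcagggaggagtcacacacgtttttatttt
Chaf1a: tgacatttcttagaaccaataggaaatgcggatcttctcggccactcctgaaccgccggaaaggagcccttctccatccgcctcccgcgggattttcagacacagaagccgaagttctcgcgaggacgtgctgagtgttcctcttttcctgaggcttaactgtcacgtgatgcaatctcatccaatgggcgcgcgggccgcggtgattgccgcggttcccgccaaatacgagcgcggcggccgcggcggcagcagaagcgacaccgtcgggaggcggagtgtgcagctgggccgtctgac

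The first question was whether each compound and mixture changed these genes against vehicle. CTD raised most of them. Of the 43 rows, 28 were up-regulated and 0 down-regulated in CTD, among 12.7% of all genes called and 6.62% called higher. The log2 fold changes of the 43 rows were all above 0, with a median of 0.85, while the median over all genes was -0.07. THI + CTD up-regulated 16 rows and IMZ + CTD 7 rows, where 4.39% and 1.46% of all genes were called, 2.67% and 1% as higher. The members' medians were 0.59 and 0.45 in these mixtures, and those of all genes -0.03 and -0.03. In THI + IMZ 1 row was called, Rrm2, where 1.18% of all genes were called, and the members' median was 0.20 against -0.02 over all genes. Neither THI nor IMZ alone had a called row, with 0.543% and 0.251% of all genes called. At an unadjusted p under 0.05, THI had 1 row higher and 5 lower, and IMZ 8 rows higher. The share of all genes at that p was not computed, here or for the later counts at an unadjusted p, so these counts have no background beside them. DESeq2's Wald test called 0 rows in THI and 1 in IMZ. Shares over all genes were not computed for DESeq2, nor for the fits below that leave out single rats. The medians of the members were -0.20 in THI and 0.21 in IMZ, beside -0.01 and -0.02 over all genes, and 32 of 43 log2 fold changes were negative in THI whereas 38 were positive in IMZ. All 6 comparisons share the same 8 Control rats.

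**Figure D1:**
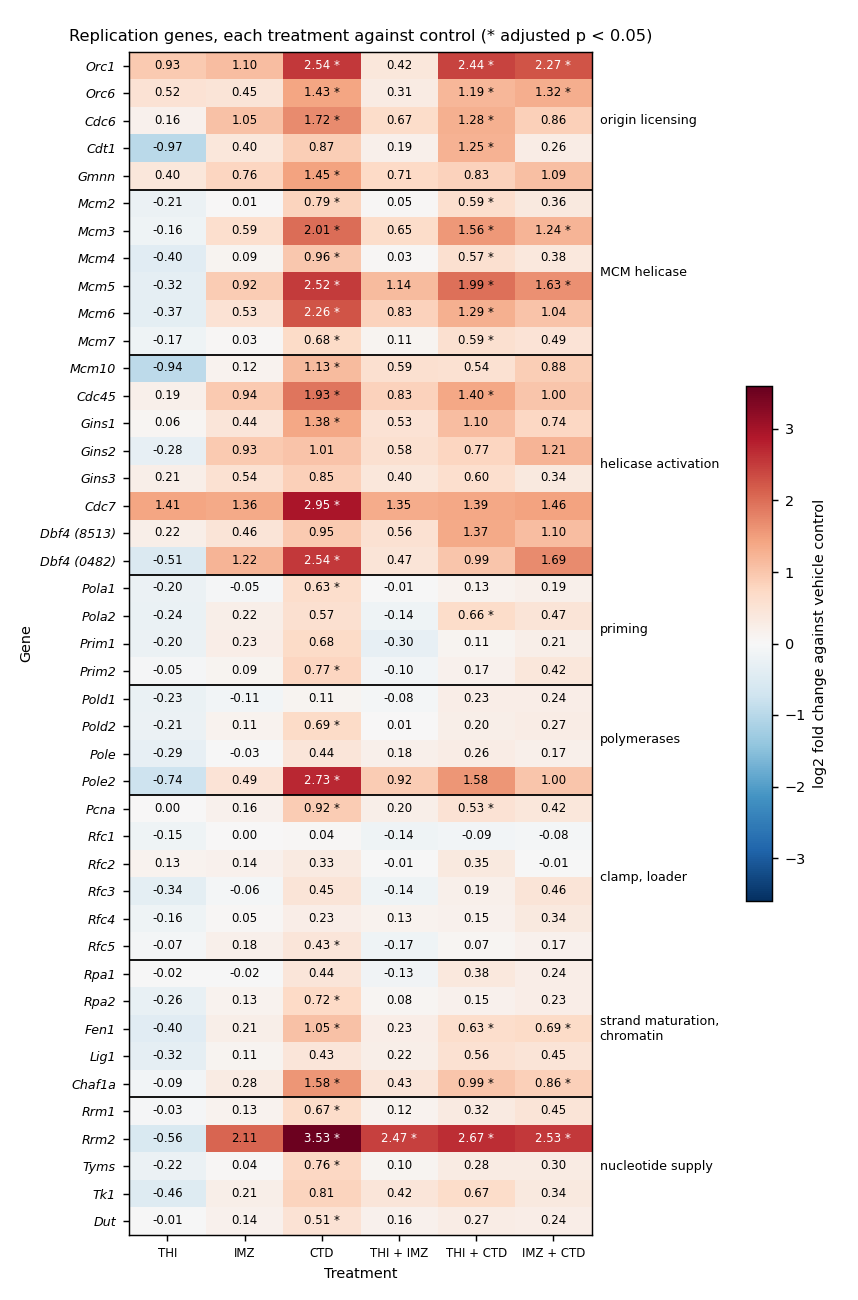
Log2 fold changes of the 43 rows (vertical axis, by role) in the 6 treatments against vehicle (horizontal axis), with asterisks at an adjusted p under 0.05 and Dbf4 shown once per identifier by its last digits. The CTD column is above 0 throughout with 28 asterisks, THI + CTD has 16, IMZ + CTD 7, THI + IMZ 1, and THI and IMZ have 0.

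How far single rats carried these counts differed between groups. The mean log2 CPM over the 43 rows ranged from 0.776 to 1.20 in the Control rats, and it was 2.62, 1.75 and 1.58 in CTD replicates 1 to 3. It was 1.61, 2.03, 1.93 and 1.13 in THI + CTD and 1.41, 1.59, 1.84 and 1.77 in IMZ + CTD. All CTD and IMZ + CTD rats lay above all Control rats, while THI + CTD replicate 4 lay among them and CTD replicate 1 stood above every other rat. The values in THI were 0.967, 0.820, 0.772 and 0.924, those in IMZ 1.11, 1.28, 1.69 and 1.31, and those in THI + IMZ 0.953, 1.01, 1.51 and 1.68. THI lay within or just under the Control range, and in IMZ and THI + IMZ some rats were within it and others above. Without CTD replicate 1, 12 rows were called higher in CTD (Orc6, Mcm3, Mcm4, Mcm5, Mcm6, Cdc45, Cdc7, Pold2, Pcna, Fen1, Chaf1a and Rrm2), and 1 row of Dbf4 lower, for which both remaining livers had 0 counts. Without THI + CTD replicate 2 or replicate 3, 5 rows were called in THI + CTD each time. In IMZ + CTD, 1 row (Rrm2) was called without its replicate 3 or replicate 4, 3 rows without its replicate 2 and 4 rows without Control replicate 7. Counts of rows in which every treated rat exceeded every Control rat were 19 in CTD (5.33% of all genes), 6 in THI + CTD (2.14%), 13 in IMZ + CTD (1.61%), 1 each in THI (0.734%) and IMZ (0.713%) and 0 in THI + IMZ (0.794%). In bulk liver a change in the number of cycling cells and a change in the RNA per cell cannot be told apart.

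**Figure D2:**
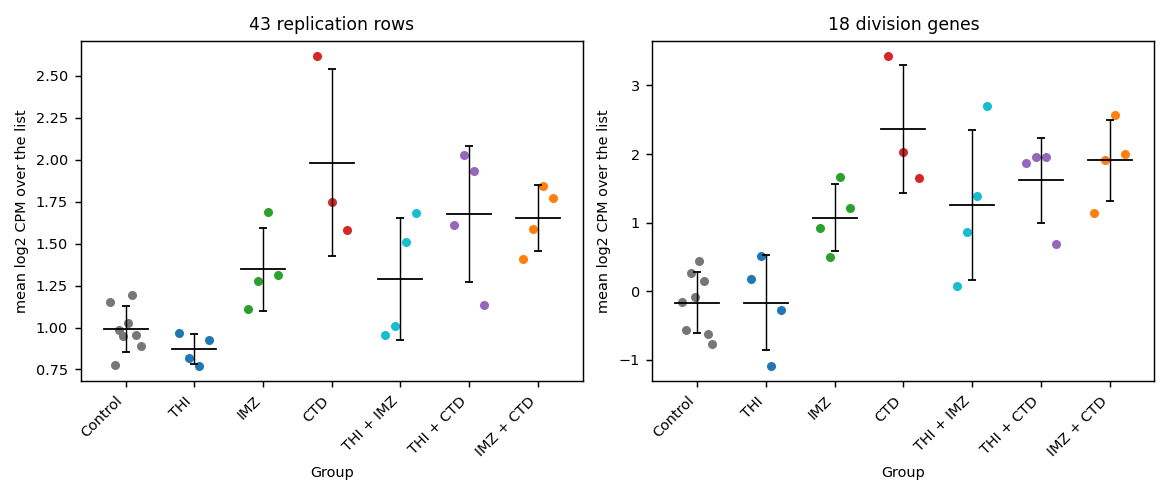
Mean log2 CPM over the 43 replication rows (left) and 18 division genes (right) in each rat by group, with the mean and SD as line and bar. CTD replicate 1 is the highest rat in both panels, at 2.62 and 3.43, and the Control rats lie between 0.776 and 1.20 and between -0.776 and 0.434.

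Library totals were 32.7 to 101 M counts in Control and 31.8 to 54.8 M in the treated rats. The livers were also checked with markers of the cells they hold. Of 9 hepatocyte markers 0 were called in CTD, with albumin (Alb) at -0.03, and their summed CPM of 199180 to 219260 lay within the Control range. Of 10 erythroid markers 3 were higher in CTD (Hbb 2.83, Hba1 2.18 and Alas2 2.34) and Slc4a1 was lower (-0.76). Their summed CPM was 125 to 150 in CTD against 23 to 52.6 in Control, and 1 of the 4 THI + CTD rats stood at 173, outside a range of 30.3 to 56.2 for the others. The mean log2 CPM of these erythroid markers was 0.108, -0.589 and -0.426 in CTD replicates 1 to 3, and -1.08 to -0.495 in Control. By that mean CTD replicate 2 lay inside the Control range. Klf1, a defining factor of red cell precursors, had a mean of 0.0260 CPM in CTD and 0.128 CPM in Control. Gata1 was at 0 in all rats, Control rats included, so it could show no difference between groups. In the CTD libraries 1 CPM stood for 32.5 to 38.7 counts, so the CTD value of Klf1 rests on very few counts. In CTD 5 of 10 Kupffer cell and macrophage markers were lower (441 to 678 CPM in sum against 552 to 905), with Clec4f at -0.39 not called. Of 12 T and NK cell markers 0 were called (16.9 to 21.4 CPM against 18.2 to 28.1, Cd4 at -0.29), and of 9 neutrophil markers 0 (0.461 to 0.936 CPM against 0.217 to 0.477, S100a9 at 0.82). Single markers were lower in the lists for B and plasma cells (Cd22, -0.99, 1 of 7), cholangiocytes (1 of 8, with Epcam at 0.26 not called) and sinusoidal endothelium (Kdr, -0.58, 1 of 9). Over all genes 12.7% were called in CTD, and 1 marker in a list of this length is near that share. In the list for stellate cells and fibroblasts 1 of 9 was higher (Col3a1, 0.54) and 1 lower. THI + CTD, where 4.39% of all genes were called, had called markers in most of these lists as well. There 5 of 10 Kupffer cell and macrophage markers were lower (465 to 614 CPM in sum), and 1 marker each was lower for hepatocytes (Serpina1, -0.43), B and plasma cells (Cd22, -1.03), T and NK cells (Cd4, -0.56) and sinusoidal endothelium (Kdr, -0.34). Of the erythroid markers 1 was higher (Hbb, 1.59), and of those for stellate cells and fibroblasts 1 was higher (Col1a1, 0.91) and 1 lower (Reln, -0.47). In IMZ + CTD, where 1.46% of all genes were called, edgeR called 0 markers of these 9 lists. At an unadjusted p under 0.05, 5 Kupffer cell and macrophage markers, 4 T and NK cell markers and 2 B and plasma cell markers were lower there, among others. The part of these cells in the values of the replication genes was not tested.

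The licensing genes rose in CTD in 4 of 5 cases, where 6.62% of all genes were called higher. Orc1, the largest subunit of the origin recognition complex, had a log2 fold change of 2.54 (SE 0.60, adjusted p = 0.00371) at only 31, 10 and 1 counts in the 3 CTD rats and 1 to 8 counts in the Control rats. Orc6, its smallest subunit, had 1.43 (SE 0.35, adjusted p = 0.00512). Cdc6, the ATPase that recruits Cdt1 and the helicase, was at 1.46, 0.801 and 0.708 CPM in the CTD rats, and its lowest, median and highest Control values were 0.136, 0.272 and 0.453 CPM. No CTD rat overlapped the Control range, and the log2 fold change was 1.72 (SE 0.37, adjusted p = 0.00186). Gmnn encodes geminin, the inhibitor of Cdt1 that blocks a second licensing. Gmnn stood at 2.76, 1.45 and 1.02 CPM in CTD and at 0.293, 0.611 and 0.984 CPM as the lowest, median and highest Control rat. The CTD values were all above the Control values, the lowest by a narrow margin, with a log2 fold change of 1.45 (SE 0.39, adjusted p = 0.0117). Cdt1 itself was not called in CTD, at 0.87 (SE 0.38, adjusted p = 0.139), but was up-regulated in THI + CTD at 1.25 (SE 0.34, adjusted p = 0.0258). THI + CTD also raised Orc1, Orc6 and Cdc6, with log2 fold changes of 2.44, 1.19 and 1.28. IMZ + CTD raised Orc1 (2.27, adjusted p = 0.0314) and Orc6 (1.32, adjusted p = 0.0253). In the 4 THI + CTD rats Cdc6 was at 0.747, 1.03, 0.788 and 0.354 CPM, of which 3 lay above the Control range. Geminin in IMZ + CTD was at 1.08, 1.05, 1.26 and 2.09 CPM. All 4 of these rats were above all Control rats, yet the difference was not called (1.09, SE 0.37, adjusted p = 0.147). THI had a log2 fold change of -0.97 for Cdt1 (SE 0.40, adjusted p = 0.459).

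The 6 subunits of the MCM helicase, Mcm2 to Mcm7, were the only role whose rows were all called in CTD and all called in THI + CTD. Mcm5 (2.52), Mcm6 (2.26) and Mcm3 (2.01) had larger log2 fold changes in CTD than Mcm4 (0.96), Mcm2 (0.79) and Mcm7 (0.68). The differences between subunits were not tested. Mcm6 was measured at 27.2, 10.5 and 10.5 CPM in CTD, and the lowest, median and highest Control values were 2.26, 3.26 and 4.61 CPM. Each CTD rat was above all Control rats, and the fold change was 4.80 (log2 2.26, SE 0.31, adjusted p = 6.31e-06). THI + CTD rats had 7.03, 11, 11.5 and 3.11 CPM, and IMZ + CTD rats had 5.78, 6.27, 7.61 and 7.77 CPM. Only replicate 4 of THI + CTD fell into the Control range among these 8 rats. The log2 fold changes of Mcm6 were 1.29 in THI + CTD (SE 0.29, adjusted p = 0.0078) and 1.04 in IMZ + CTD (SE 0.30, adjusted p = 0.0787). Mcm6 stood at 2.65, 4.22, 9.02 and 7.86 CPM in THI + IMZ, at 3.41, 4.81, 7.29 and 3.87 CPM in IMZ and at 2.96, 2.06, 3.42 and 2.00 CPM in THI. THI + IMZ thus split into a pair of rats within the Control range and a pair above it, and its log2 fold change of 0.83 was not called (SE 0.30, adjusted p = 0.23). Mcm3, whose promoter is shown above with that of Mcm6, was at 10.5, 6.56 and 4.74 CPM in CTD and between 1.27 and 2.29 CPM in the Control rats. Mcm3 was called in IMZ + CTD as well (1.24, SE 0.29, adjusted p = 0.018), as was Mcm5 (1.63, SE 0.41, adjusted p = 0.0305). Mcm7 had 23.8, 14.6 and 10.2 CPM in CTD, with Control values of 8.49, 10.2 and 12.0 CPM as the lowest, median and highest. CTD replicate 3 lay within the Control range, and the log2 fold change was 0.68 (SE 0.17, adjusted p = 0.00643), a call that was lost without CTD replicate 1. In THI the 6 subunits had log2 fold changes from -0.40 (Mcm4) to -0.16 (Mcm3), of which 0 passed the test, and every THI rat was below every Control rat for Mcm4, as for Fen1, the 2 rows of which this held (0.688% of all genes).

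Of the 8 rows of helicase activation, 5 were up-regulated in CTD, 1 in THI + CTD and 0 in IMZ + CTD. Over all genes, 6.62%, 2.67% and 1% were called higher in these treatments. Cdc45, which joins MCM and GINS in the active helicase, had log2 fold changes of 1.93 in CTD (SE 0.36, adjusted p = 0.000301) and 1.40 in THI + CTD (SE 0.33, adjusted p = 0.0113). The GINS subunit Gins1 passed in CTD at 1.38 (adjusted p = 0.0366), while Gins2 (1.01, adjusted p = 0.127) and Gins3 (0.85, adjusted p = 0.0901) did not. Mcm10, a factor of origin firing, was at 4.42, 2.2 and 1.94 CPM in CTD, and its Control values were 0.724, 1.16 and 1.99 CPM as the lowest, median and highest. One CTD rat was below the highest Control rat, and the log2 fold change was 1.13 (SE 0.36, adjusted p = 0.0337). The 4 THI rats had 0.539, 0.319, 0.524 and 1.33 CPM of Mcm10, with a log2 fold change of -0.94 (SE 0.38, adjusted p = 0.445). Cdc7, the kinase that phosphorylates MCM, had 1.35, 0.982 and 0.215 CPM in CTD, from 52, 38 and 7 counts, against 0.0302, 0.0938 and 0.185 CPM as the lowest, median and highest Control values. The log2 fold change in CTD was 2.95 (SE 0.45, adjusted p = 2.88e-05). Cdc7 was also the row for which all THI and all IMZ rats exceeded all Control rats, at 0.377, 0.244, 0.221 and 0.333 CPM in THI and 0.193, 0.196, 0.442 and 0.303 CPM in IMZ. Its log2 fold changes of 1.41 (SE 0.45, adjusted p = 0.247) and 1.36 (SE 0.45, adjusted p = 0.299) did not pass the test, nor did those of 1.35, 1.39 and 1.46 in the 3 mixtures. Dbf4, the activating subunit of Cdc7, was split over 2 identifiers with few counts each. ENSRNOG00000050482 had 22, 11 and 7 counts in CTD, at most 9 in a Control rat, and a log2 fold change of 2.54 (SE 0.60, adjusted p = 0.00402). ENSRNOG00000008513 had 27, 0 and 0 counts in CTD and 0 to 12 in the Control rats (0.95, SE 0.70, adjusted p = 0.435), and a count of 0 allows up to 0.0775 and 0.0923 CPM in those CTD rats, counting error only. How reads of Dbf4 were divided between the identifiers was not tested, so both rows are uncertain.

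Of the 8 priming and polymerase rows, 4 were up-regulated in CTD and 1 in THI + CTD, where 6.62% and 2.67% of all genes were called higher. The 4 genes of the polymerase alpha-primase complex had log2 fold changes from 0.57 to 0.77 in CTD, of which Pola1, its catalytic subunit, and Prim2, the large primase subunit, were called. Pola1 was at 8.79, 6.85 and 5.88 CPM in CTD, and the lowest, median and highest Control rats had 3.84, 4.60 and 5.50 CPM. Every CTD rat was above every Control rat, and the log2 fold change was 0.63 (SE 0.15, adjusted p = 0.0034). Prim1, the catalytic primase subunit, was at 20.2, 15.1 and 14.2 CPM in CTD and at 4.30, 10.7 and 13.7 CPM as the lowest, median and highest Control rat. Here too the groups did not overlap, but the spread among Control rats was wide and the difference was not called (0.68, SE 0.26, adjusted p = 0.0782). Pola2, the accessory subunit, was called in THI + CTD (0.66, SE 0.19, adjusted p = 0.0398) and not in CTD (0.57, SE 0.21, adjusted p = 0.0753). Among the polymerase genes, Pold2, an accessory subunit of polymerase delta, was called in CTD at 0.69 (SE 0.17, adjusted p = 0.00441), whereas its catalytic subunit Pold1 had 0.11 (SE 0.22, adjusted p = 0.785). Pole, the catalytic subunit of polymerase epsilon, was at 17.5, 14.6 and 10.8 CPM in CTD and between 7.99 and 12.2 CPM in Control rats, with a log2 fold change of 0.44 (SE 0.16, adjusted p = 0.0705). Pole2, its second subunit, had 1.38, 0.388 and 0.0923 CPM in CTD, from 53, 15 and 3 counts, and 0.0454, 0.101 and 0.121 CPM as the lowest, median and highest Control values. The CTD rats thus ran from within the Control range to far above it, and the log2 fold change was 2.73 (SE 0.52, adjusted p = 0.000479). In THI + CTD all 4 rats were above the Control range for Pole2, at 0.241, 0.268, 0.383 and 0.228 CPM (1.58, SE 0.51, adjusted p = 0.0723). In the mixtures THI + IMZ and IMZ + CTD, 0 of the 8 priming and polymerase rows were called.

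**Figure D3:**
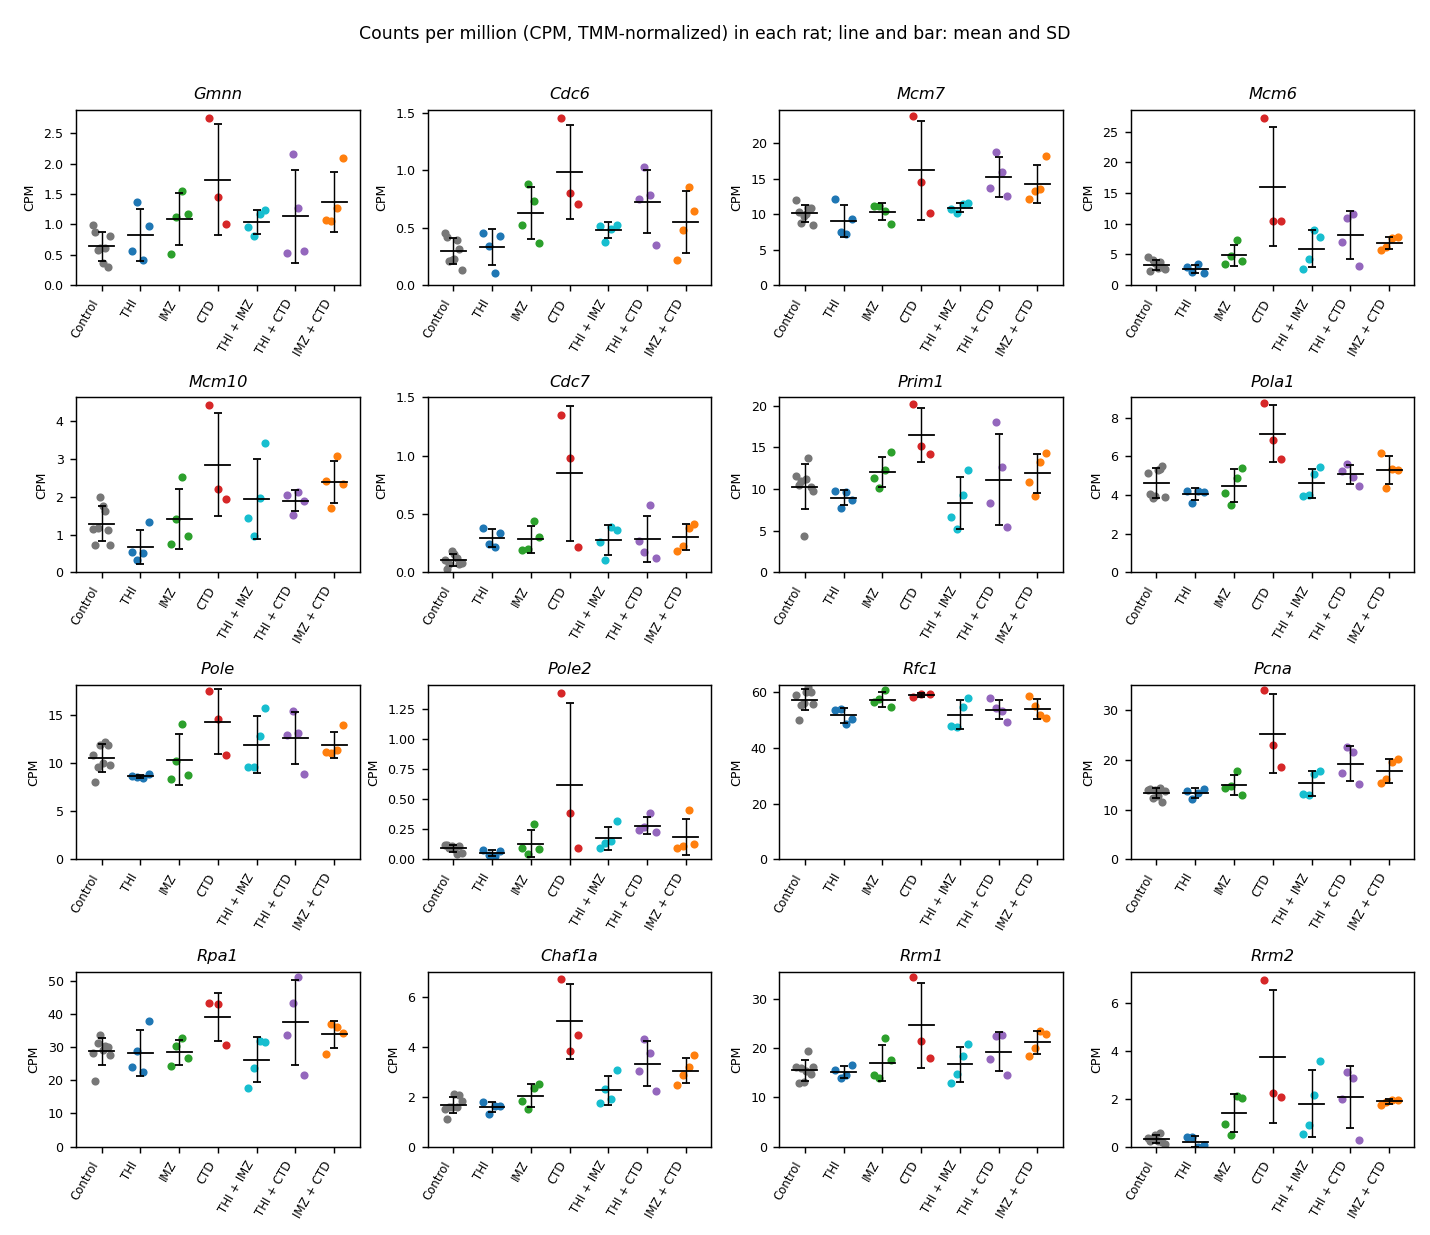
CPM in each rat (vertical axis, from 0, a scale of its own per panel) by group for the 16 members described rat by rat, with mean and SD. For Mcm6, Chaf1a, Pcna and Rrm2 the 3 CTD rats lie above all Control rats, while for Rfc1 the groups overlap between 47.2 and 61.8 CPM.

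The clamp gene Pcna was called in CTD, whereas of the 5 genes of its loader only Rfc5 was, with 6.62% of all genes called higher. Pcna was at 34.0, 23 and 18.6 CPM in CTD, and the lowest, median and highest Control values were 11.5, 13.8 and 14.4 CPM. The CTD rats were all above the Control range, with a log2 fold change of 0.92 (SE 0.13, adjusted p = 1.44e-05). THI + CTD rats had 17.4, 22.6, 21.6 and 15.2 CPM and IMZ + CTD rats had 15.4, 16.2, 19.5 and 20.1 CPM. All 8 of these rats exceeded the Control rats. The difference was called in THI + CTD (0.53, SE 0.12, adjusted p = 0.00948) and not in IMZ + CTD (0.42, SE 0.13, adjusted p = 0.0907). Rats had 13.7, 12.0, 13.3 and 14.2 CPM in THI, 14.3, 14.7, 17.7 and 12.9 CPM in IMZ and 13.2, 12.9, 17.2 and 17.7 CPM in THI + IMZ. Those groups overlapped the Control range. The large loader subunit Rfc1 was at 58.2, 59.1 and 59.4 CPM in CTD and between 49.98 and 61.8 CPM in Control, so that CTD lay inside the Control range. Its log2 fold change was 0.04, with a 95% interval from -0.10 to 0.19. Of the small loader subunits, which also gave log2 fold changes under 0.5, Rfc5 was called in CTD (0.43, SE 0.14, adjusted p = 0.0416) and Rfc2 (0.33), Rfc3 (0.45) and Rfc4 (0.23) were not. None of the 5 loader genes was called in another treatment. In CTD all 6 rows of clamp and loader had log2 fold changes above 0, and 4 of them had an unadjusted p under 0.05. In the other treatments, at that p, Rfc1 was lower in THI and THI + IMZ, Rfc2 higher in THI + CTD, and Rfc3 and Rfc4 higher in IMZ + CTD.

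Among the genes of strand maturation and chromatin, Chaf1a, the large subunit of the chromatin assembly factor that deposits histones behind the fork, had the smallest p of all 43 rows in CTD. It was at 6.74, 3.85 and 4.49 CPM in CTD, with 1.12, 1.59 and 2.12 CPM as the lowest, median and highest Control values. THI + CTD rats had 3.04, 4.33, 3.75 and 2.23 CPM, and IMZ + CTD rats 2.49, 2.87, 3.17 and 3.66 CPM. In all 3 groups with CTD every rat was above every Control rat. The log2 fold changes of Chaf1a were 1.58 (SE 0.20, adjusted p = 2.35e-06), 0.99 (SE 0.19, adjusted p = 0.00179) and 0.86 (SE 0.19, adjusted p = 0.0143) in CTD, THI + CTD and IMZ + CTD. The other treatments had 1.78, 1.29, 1.63 and 1.62 CPM in THI, 1.81, 1.5, 2.36 and 2.53 CPM in IMZ and 1.76, 2.31, 1.89 and 3.06 CPM in THI + IMZ. THI stayed inside the Control range, while IMZ and THI + IMZ each had a pair of rats above it. Fen1, the flap endonuclease that trims Okazaki fragments, was called in the same 3 treatments, at 1.05 (SE 0.18), 0.63 (SE 0.17) and 0.69 (SE 0.17). Lig1, the ligase that joins the fragments, was not called in any (0.43, 0.56 and 0.45). Rpa2, the middle subunit of the single-strand binding protein RPA, was called in CTD (0.72, SE 0.15, adjusted p = 0.00145). Rpa1, its large subunit, was at 43.4, 43.2 and 30.7 CPM in CTD and between 19.8 and 33.7 CPM in Control rats. One CTD rat lay within the Control range, and the difference was not called (0.44, SE 0.19, adjusted p = 0.127).

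Rrm2, the regulated subunit of ribonucleotide reductase, had the largest log2 fold change of the 43 rows in CTD, IMZ, the 3 mixtures. It was at 6.97, 2.25 and 2.09 CPM in CTD, from 268, 87 and 68 counts, and the lowest, median and highest Control values were 0.109, 0.294 and 0.575 CPM. THI + CTD rats had 2.00, 3.12, 2.87 and 0.278 CPM, and IMZ + CTD rats had 1.75, 1.87, 1.97 and 1.96 CPM. CTD and IMZ + CTD lay wholly above the Control range, and the IMZ + CTD rats were close to one another, whereas THI + CTD replicate 4 was at a Control level. The fold changes were 11.6 in CTD (log2 3.53, SE 0.55, adjusted p = 3.33e-05), 6.37 in THI + CTD (log2 2.67, SE 0.52, adjusted p = 0.00228) and 5.80 in IMZ + CTD (log2 2.53, SE 0.53, adjusted p = 0.00873). THI + IMZ rats had 0.539, 0.886, 2.18 and 3.59 CPM and IMZ rats 0.964, 0.491, 2.11 and 2.05 CPM. A single rat of each of these groups was inside the Control range. Rrm2 was called in THI + IMZ (2.47, SE 0.53, adjusted p = 0.0122), but not without THI + IMZ replicate 4, and it was not called in IMZ (2.11, SE 0.53, adjusted p = 0.0941), although it was called there when THI + CTD replicate 4 was left out of the fit. In THI the rats had 0.404, 0.394, 0 and 0.0476 CPM, and replicate 3 had 0 counts, which allows up to 0.0827 CPM (3 counts, counting error only). A pair of THI rats thus lay within the Control range and a pair below it, with a log2 fold change of -0.56 that was not called. Rrm1, the partner subunit, was at 34.5, 21.6 and 18 CPM in CTD and between 12.9 and 19.5 CPM in Control rats, and CTD replicate 3 lay inside that range. The log2 fold change of Rrm1 was 0.67 (SE 0.16, adjusted p = 0.00466). Tyms (thymidylate synthase) and Dut (dUTPase) were called in CTD at 0.76 (SE 0.23, adjusted p = 0.0233) and 0.51 (SE 0.12, adjusted p = 0.00289), and Tk1 (thymidine kinase) was not (0.81, SE 0.31, adjusted p = 0.0819).

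CTD was next set directly against the other compounds, at doses that differ. Against THI, the other neonicotinoid, 27 of 43 rows were higher in CTD and 0 lower, where 6.61% of all genes were called, 3.42% as higher, and the members' median was 0.97. Rrm2 differed by 4.09 (SE 0.74, adjusted p = 0.000535), Mcm6 by 2.63 (SE 0.39, adjusted p = 6.42e-05) and Cdt1 by 1.84 (SE 0.47, adjusted p = 0.0125). Without CTD replicate 1 the count was 12, of which 11 were higher. Orc1, Orc6, Gmnn, Gins1, Cdc7 and Rfc5, which were called in CTD against Control, were not called here. The difference of Cdc7 was 1.54 (95% interval from 0.46 to 2.61, adjusted p = 0.0789). Against IMZ, 11 rows were higher and 0 lower, where 4.67% of all genes were called, 2.28% as higher, with a median of 0.66. They were Mcm2, Mcm3, Mcm4, Mcm6, Mcm7, Pola1, Pole2, Pcna, Rpa2, Fen1 and Chaf1a, with Pole2 at 2.23 and Mcm6 at 1.73 as the largest. This count was 2 without CTD replicate 1 (1 higher and 1 lower), 5 without IMZ replicate 1, and 6 without IMZ replicate 2 or replicate 4. Rrm2 was not called between CTD and IMZ, at a log2 difference of 1.43.

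**Figure D4:**
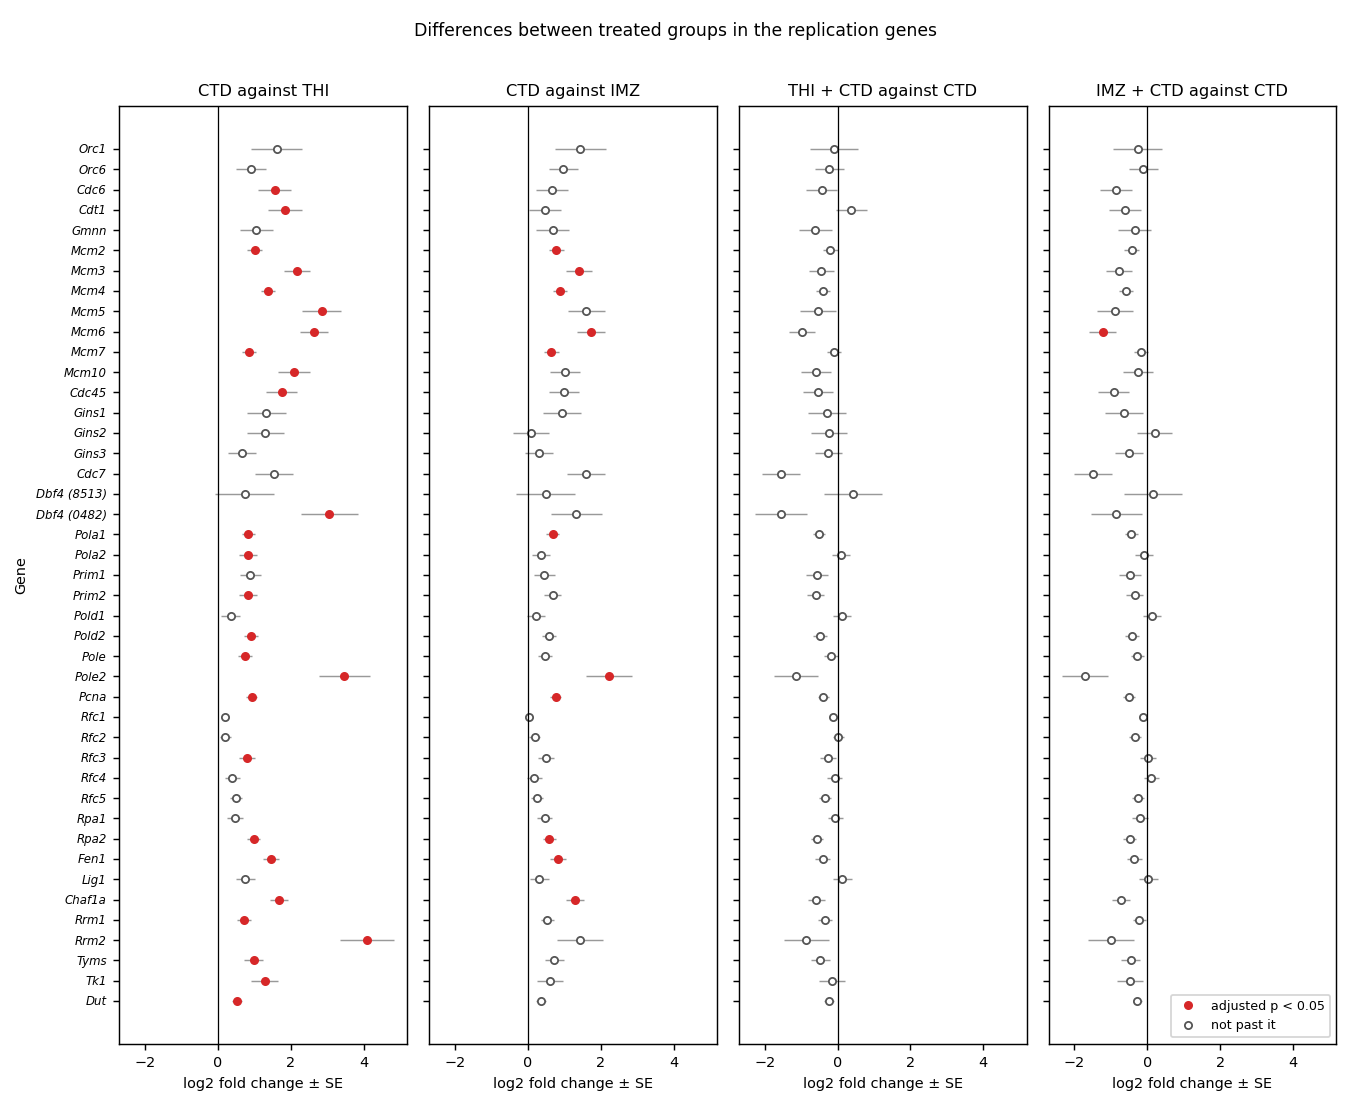
Log2 differences with SE (horizontal axis) of the 43 rows (vertical axis) in CTD against THI and IMZ and in the CTD mixtures against CTD, with called rows filled. Rows of CTD against THI and IMZ lie right of 0 with 27 and 11 filled, and most rows of the mixtures against CTD lie left of 0 with 0 and 1 filled.

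The CTD doses in the mixtures (134 and 135 mg/kg bw/day) were lower than that of CTD alone (288 mg/kg bw/day). In THI + CTD against CTD 0 rows were called by edgeR, where 2.67% of all genes were, 11 rows had an unadjusted p under 0.05, all lower, and DESeq2's Wald test called 1. The median difference was -0.35, and the count was 0 or 1 when single rats were left out. In IMZ + CTD against CTD 1 row was lower, Mcm6 (-1.23, SE 0.37, adjusted p = 0.0462), where 5.53% of all genes were called and 2.7% as lower, and the median was -0.43. This count ranged from 0 to 5 when single rats were left out. Pcna came next at -0.50 (95% interval from -0.82 to -0.18, adjusted p = 0.0535). Between THI + CTD and IMZ + CTD, whose CTD doses of 134 and 135 mg/kg bw/day were nearly the same, edgeR called 0 rows at 0.176% of all genes, with 2 rows at an unadjusted p under 0.05. The median difference was 0.09, and for 27 of 43 rows the 95% interval lay within a log2 difference of 1 in both directions. Cdt1 was at 0.99 (95% interval from 0.15 to 1.83, adjusted p = 0.391) and Rfc2 at 0.36 (95% interval from 0.07 to 0.65, adjusted p = 0.358).

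Each mixture was also compared with the log2 fold changes of its compounds added up by dose, THI and IMZ each counting 0.5 and CTD 0.47. No row was called off this sum by edgeR in THI + IMZ (0.0151% of all genes called), THI + CTD (0.286%) or IMZ + CTD (1.16%). At an unadjusted p under 0.05, 4, 8 and 0 rows were off it, all of them higher, and DESeq2's Wald test called 1 row, in THI + CTD. Cdt1 in THI + CTD was farthest by p, 1.32 above the sum (95% interval from 0.61 to 2.04, adjusted p = 0.116). Rrm2 was 1.29 above it in THI + CTD (adjusted p = 0.426) and 1.70 above it in THI + IMZ (adjusted p = 0.416). Without CTD replicate 1, 2 rows were called in THI + CTD and 1 in IMZ + CTD.

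Other genes of replication, a list of 42 symbols of which 38 were in the table, were called higher in CTD in 20 cases and lower in 1, with a median of 0.51. Ticrr (2.82, SE 0.56), which helps load Cdc45, Clspn (2.71, SE 0.52), which encodes the fork protein claspin, Uhrf1 (2.63, SE 0.41), which guides maintenance methylation of new DNA, and Chaf1b (2.32, SE 0.36), the partner of Chaf1a, rose most. Rnaseh2c, a subunit of ribonuclease H2, fell by 0.44 (SE 0.13), and Pole4, a small subunit of polymerase epsilon, had the smallest called rise at 0.27 (SE 0.09). The counts were 0 in THI and IMZ, 1 in THI + IMZ, 7 in THI + CTD and 4 in IMZ + CTD. Of a list of 18 genes of cell division, 18 were up-regulated in CTD (median 2.96), 17 in THI + CTD, 17 in IMZ + CTD, 12 in THI + IMZ and 0 in THI and IMZ. Over all genes, 12.7% were called in CTD, 4.39% in THI + CTD and 1.46% in IMZ + CTD. The shares were 1.18% in THI + IMZ, 0.543% in THI and 0.251% in IMZ. At an unadjusted p under 0.05, 17 division genes were higher in IMZ (median 1.36) and 0 in THI (median 0.04). Their mean log2 CPM in the IMZ rats was 0.913, 0.497, 1.66 and 1.21. Each of these values was above the highest Control rat (0.434). Mki67, the proliferation marker Ki-67, had log2 fold changes of 2.94 in CTD (SE 0.42) and 1.63 in THI + IMZ (SE 0.40). Cdk1, the mitotic kinase, had 3.44 in CTD (SE 0.41) and 2.46 in THI + IMZ (SE 0.39). Top2a and Ccnb1 had 3.40 (SE 0.45) and 3.24 (SE 0.48) in CTD. THI + IMZ replicate 4 stood at a mean log2 CPM of 2.69 over the division genes and at 1.68 over the replication rows, the highest of its group in both.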

How the data were processed

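Livers of 31 rats in 7 groups were measured by total RNA-Seq. The authors trimmed reads, mapped them with STAR 2.5.2b to Rnor_5.0 and deposited counts per gene, as whole numbers without normalization. They also deposited a normalized signal, which matched counts divided by size factors (relative deviation at most 5e-15) and was used for that check alone. Groups came from the sample labels. Counts, of which libraries held 31.8 to 101 M, were fitted with edgeR 4.0.16 in R 4.3.3, keeping genes whose counts summed to 2 or more, TMM, 1 mean per group over all rats, the quasi-likelihood test, and Benjamini-Hochberg adjustment over 19904 genes with a threshold of 0.05. The common biological coefficient of variation was 19.4%. In dose-weighted sums THI and IMZ each counted 0.5 and CTD 0.47. The SE is the log2 fold change over the square root of F, and log2 CPM used a prior count of 2. Scripts were tested on simulated data.

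The members and gene lists were chosen with earlier results of these data known. Values rat by rat are given for 2 members of each of 8 roles, the one with the highest average log2 CPM and the one with the smallest p in CTD, and Mcm3 was added because its promoter is shown. From the list of other replication genes, those named are the top 4 and bottom 2 called in CTD by log2 fold change, and of each marker list the gene with the highest average. The other marker genes named, and the counts given for Orc1 and Dbf4, were chosen after their values were seen. Alternatives were DESeq2 1.42.0 (size factors, Wald test), other filters, a fit of only the groups compared, thinned counts, a replicate block, and leaving out each rat. Positions on Rnor_5.0 were not used here. The annotation release and the strand setting of the counting are not given in the sources used here, so overlapping antisense genes may share reads.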

Additional observations from a re-analysis of the deposited data

Results flagged for a closer look

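Of 102 groups of values tested for a rat far from the others, which chance alone would flag in about 1 of 20, 5 stood out. The CTD group, with 3 rats, was too small for this test, so CTD replicate 1 was not screened. Prim1 was at 4.30 CPM in Control replicate 4, where the next Control rat had 9.80 CPM. Rpa1 was at 19.8 CPM in Control replicate 2, with the next at 27.5 CPM. Pola1 was at 3.58 CPM in THI replicate 2, with the next at 4.14 CPM. Pole was at 13.9 CPM in IMZ + CTD replicate 4, with the next at 11.3 CPM, and Pole2 was at 0.411 CPM in IMZ + CTD replicate 3, with the next at 0.128 CPM. The differences between treated groups passed the test in 27 rows for CTD against THI, 11 rows for CTD against IMZ and 1 row for IMZ + CTD against CTD.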

How the results depend on the processing

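Calls of the 43 rows in CTD against Control were 25 to 30 under the alternatives that kept all rats. Counts moved by over 1.5 times in these cases. DESeq2's Wald test called 1 row in IMZ (main result 0), 1 in THI + CTD against CTD (0), 4 in IMZ + CTD against CTD (1) and 1 off the dose-weighted sum in THI + CTD (0). With filterByExpr 1 row was called in THI + CTD against CTD and 3 in IMZ + CTD against CTD, which had 0 without a filter. Fits of the compared groups alone gave 1 row in IMZ, 11 in IMZ + CTD (7), 15 in CTD against THI (27), 3 in CTD against IMZ (11) and 0 in IMZ + CTD against CTD. The cause was not tested.

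The main fit did not treat replicate numbers as pairs. Same-numbered rats of different groups deviated together with r from -0.272 to 0.419 (median 0.023, 78 pairs), and 1 of 21 group pairs had every r over 0.1. Of 27 rats, 11 correlated best with their own number. How many would do so by chance was not computed, so these values do not exclude a pairing. With the replicate number as a block, 0 rows were called in THI + IMZ (1), 4 in THI + CTD (16), 1 in IMZ + CTD (7), 0 in IMZ + CTD against CTD (1) and 25 in CTD (28), and the median in THI was -0.0927 (-0.20).

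Leaving out each rat in turn, the calls were 0 to 0 in THI, 0 to 1 in IMZ, 13 to 31 in CTD, 0 to 1 in THI + IMZ, 5 to 18 in THI + CTD and 1 to 10 in IMZ + CTD. They were 12 to 31 for CTD against THI, 2 to 14 for CTD against IMZ, 0 to 1 for THI + CTD against CTD, 0 to 5 for IMZ + CTD against CTD and 0 to 0 for THI + CTD against IMZ + CTD. Off the dose-weighted sum they were 0 to 0 in THI + IMZ, 0 to 2 in THI + CTD and 0 to 1 in IMZ + CTD. The members' median ran from -0.21 to -0.14 in THI, 0.12 to 0.26 in IMZ, 0.56 to 0.98 in CTD, 0.05 to 0.33 in THI + IMZ, 0.47 to 0.67 in THI + CTD and 0.40 to 0.53 in IMZ + CTD.

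Of 9804 values of single genes in the 6 treatments against Control, 1 reversed. Dbf4 (ENSRNOG00000008513) in CTD was called at -5.52 without CTD replicate 1, a fitted value with both remaining livers at 0 counts. A further 124 values that were not called changed sign. Genes with few counts, such as Orc1, Cdc7, Pole2 and Dbf4, are limited by depth, and with 3 CTD rats 1 rat decides many calls.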
